A study of Mus musculus with 32 samples.

Results

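Expression of the subunits of the ionotropic glutamate receptors of the AMPA and NMDA type was followed in the midbrain and medulla of mice with and without the cholecystokinin B receptor. The list held 10 genes, Gria1 to Gria4 for the AMPA receptor, Grin1 and Grin2a to Grin2d for the NMDA receptor, and Grik5, which encodes a kainate receptor subunit and so belongs to neither type. Every probe set annotated with one of these symbols alone was taken. This gave 12 probe sets for 9 genes, of 22626 probe sets and 12393 genes tested on the array. Gria1, Gria2 and Grin2b had a pair of probe sets each, and the brighter one on average is called the lead set. Grin1 had no probe set under its own symbol and is not analysed here.

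The study crossed genotype with nerve injury. KO mice lacked Cckbr, which encodes the cholecystokinin B receptor, and control mice are named only as controls in the sample labels. Mice had either chronic constriction injury (CCI), a model of neuropathic pain in which a nerve is loosely tied, or a sham operation, and the midbrain and the medulla were taken from every animal. The 8 groups, of 4 arrays each, were KO CCI, control CCI, KO sham and control sham in the midbrain and the same 4 in the medulla. Strain, sex, age and the time after the operation are not given in the sources used here, and neither is the design of the mutant allele. The 32 arrays came from 16 animals, according to the design. Consecutive array numbers were taken to mark the medulla and midbrain arrays of one animal. For KO sham 3 and 4 the titles pair the arrays the other way, so values by animal are given both ways where this matters.

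AMPA receptors are tetramers that carry most fast excitatory current in the brain. The subunit encoded by Gria2 is normally altered by RNA editing, which makes receptors that hold it nearly impermeable to calcium. NMDA receptors need both glutamate and a co-agonist as well as depolarisation to open, and their glutamate-binding subunits, encoded by the Grin2 genes, set how fast they close. Midbrain and medulla hold the descending pathways that modulate pain in the spinal cord, in which glutamate is the main excitatory transmitter.

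The 250 bases before the RefSeq transcription start (GRCm38.p6) of 4 of the genes are shown, because Gria2 and Grik5 were higher in the midbrain while Gria4 and Grin2c did not pass the test. All 4 lie on the minus strand and are written 5′ to 3′ along the gene. Of the 10 listed genes 6 had such a window in the table used, and those of Grin1 and Grin2d are not shown. The capitals mark matches, on either strand, to the GC box GGGCGG and to the core of the RE1 element, searched as AGCACC and GGACAG with 2 bases between them. RE1 is the binding element of REST, a repressor of neuronal genes in other cells.
Gria2, chr3:80802836-80803085: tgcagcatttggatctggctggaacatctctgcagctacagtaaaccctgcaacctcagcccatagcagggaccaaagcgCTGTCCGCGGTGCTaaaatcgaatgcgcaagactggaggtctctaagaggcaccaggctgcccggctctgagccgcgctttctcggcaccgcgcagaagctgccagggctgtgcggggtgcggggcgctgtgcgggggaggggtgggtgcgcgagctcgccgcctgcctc
Grik5, chr7:25072370-25072619: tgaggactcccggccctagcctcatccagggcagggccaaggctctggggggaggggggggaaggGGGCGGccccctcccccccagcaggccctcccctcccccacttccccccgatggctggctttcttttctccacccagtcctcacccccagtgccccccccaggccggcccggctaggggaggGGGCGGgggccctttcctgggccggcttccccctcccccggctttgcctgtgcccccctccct
Gria4, chr9:4796235-4796484: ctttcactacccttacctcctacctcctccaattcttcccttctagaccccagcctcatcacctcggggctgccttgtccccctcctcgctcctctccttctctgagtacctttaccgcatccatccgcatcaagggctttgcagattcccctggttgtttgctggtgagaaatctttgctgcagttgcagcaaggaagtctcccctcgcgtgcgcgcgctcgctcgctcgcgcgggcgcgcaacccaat
Grin2c, chr11:115267244-115267493: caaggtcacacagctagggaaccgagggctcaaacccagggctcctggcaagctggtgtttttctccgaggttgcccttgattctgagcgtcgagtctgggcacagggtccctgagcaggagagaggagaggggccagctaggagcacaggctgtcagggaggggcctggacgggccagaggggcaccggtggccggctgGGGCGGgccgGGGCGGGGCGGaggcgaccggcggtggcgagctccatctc

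The Gria2 window held the RE1 core, on the strand opposite to the gene. The same letters occurred in 12 of 27025 windows of that length (0.0444%). Grik5 held 2 GC boxes and Grin2c held 3, a pair of which overlap by a base, and GC boxes occurred in 32.9% of all windows. The Gria4 window held neither motif. The NRF1 core GCGCATGC (2.32% of windows) and the cAMP response element TGACGTCA (1.62%) were found in none of the 4. All were richer in G and C than the median window of 52%, at 64.8% for Gria2, 75.2% for Grik5, 58.8% for Gria4 and 68.8% for Grin2c. A match in letters is a description of the window and not evidence of binding. Its relation to the regional differences was not tested.

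Messenger RNA was measured with short-oligonucleotide arrays. Each deposited value was treated as an intensity from which background had been taken off, on a linear scale and in arbitrary units. Differences are given as log2(intensity + 16) after quantile normalization, tested with limma, a linear model that shares the spread between probe sets, and p-values were adjusted over all probe sets by Benjamini and Hochberg. Array medians lay between 91 and 99.9 intensity units, 2.15% of all values were at or below 0, and the 4 arrays per group limit the precision. Cckbr, the targeted gene, was at most 24.1 units on the KO arrays and at least 122 units on the control arrays. Of the midbrain marker genes 11 of 15 were higher in midbrain arrays, and of the medulla and hindbrain markers 13 of 14 were lower there. One array stood apart: KO sham medulla 3 was the highest of the 16 medulla arrays for 10 of 11 markers of cerebellar granule and Purkinje neurons, whose summed level was 13810 units on it and 5442 to 8056 units on the other 15. Gabra6, a receptor subunit of cerebellar granule cells, read 1077 units there and 30.5 to 284 units on the others. The same array had the highest medulla values of Gria1 (lead set), Gria4 and Grin2c, and the fitted differences of these genes that rest on it are given with and without it.

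The clearest pattern of the subunits was regional. Gria1 and Gria2, the subunits of the AMPA receptor most common in the forebrain, were about 1.6 times as high in midbrain as in medulla on their lead sets, and higher there on their other sets too. Grik5, the kainate subunit, was higher by a smaller step. Gria3, Gria4 and the 4 NMDA genes did not pass the test in either direction. In all, 5 of the 12 probe sets were called higher and 0 lower in midbrain by limma at an adjusted p under 0.05, against 10.5% of all probe sets called higher, 11% called lower and 21.5% called in either direction. The same 5 were also the only members with an unadjusted p under 0.05. By gene, 3 of 9 lead sets passed, where 24.3% of the lead sets of all genes did, so the number of calls alone does not set the list apart.

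Among the members Gria2 gave the widest separation. Its lead set (1421970_a_at) ran from 1200.4 units through a median of 1496 to 1639.5 units on the 16 midbrain arrays, and from 794 through 900.04 to 981 units on the 16 medulla arrays. The lowest midbrain array was thus above the highest medulla array. The share of all probe sets whose regions separate in this way was not computed. In KO CCI mice the values were 1599, 1476, 1309.7 and 1595 units in midbrain and 856, 870.3, 818 and 858 units in medulla. In control sham mice they were 1200.4, 1525, 1558 and 1523 units in midbrain and 794, 981, 900.4 and 899.6 units in medulla. The array of control sham midbrain 1 was the low one among the midbrain arrays. Control sham medulla 1, from the same animal, was the lowest medulla array in deposited units, at 794 units. On both Gria1 sets the arrays of this animal were also the lowest of their regions in deposited units (642 and 398 units on the lead set). After quantile normalization control sham medulla 1 was no longer the lowest for Gria2, at 9.708 beside 9.655 on KO CCI medulla 3. The log2 difference of the Gria2 lead set between the regions was 0.70 ± 0.043 (SE, 95% interval 0.611 to 0.788, adjusted p = 5.43e-13), a 1.62-fold higher level in midbrain. The other Gria2 set (1453098_at) ran from 255 through 381 to 531 units in midbrain and from 217 through 252 to 380.0 units in medulla, so its regions overlapped. It was higher by 0.50 ± 0.081 on the log2 scale (SE, adjusted p = 3.21e-05).

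Gria1, whose product is moved in and out of synapses with activity, behaved alike. The lead set (1435239_at) ran from 642 through 743 to 838 units in midbrain and from 398 through 445 to 689 units in medulla. The 689 units belong to KO sham medulla 3, and the other 3 KO sham medulla arrays read 422, 403 and 431 units. Midbrain and medulla overlapped through that array alone: 15 of 16 medulla arrays were below every midbrain array. The log2 difference was 0.66 ± 0.056 (SE, 95% interval 0.546 to 0.777, adjusted p = 4.71e-10), 1.58-fold, and 0.705 without KO sham medulla 3 (adjusted p = 1.18e-13). On the other set (1448972_at) midbrain arrays ran from 485 through 723 to 895 units and medulla arrays from 317 through 479 to 525 units, a log2 difference of 0.61 ± 0.059 (SE, adjusted p = 6.58e-09). KO sham medulla 3 read 490.1 units on that set, within the range of the other medulla arrays. The sets of one gene moved together only in part, since their residuals from the group means correlated at 0.391 for Gria1 and 0.453 for Gria2 (Pearson, 32 arrays that share preparation and scaling, as a description).

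**Figure D1:**
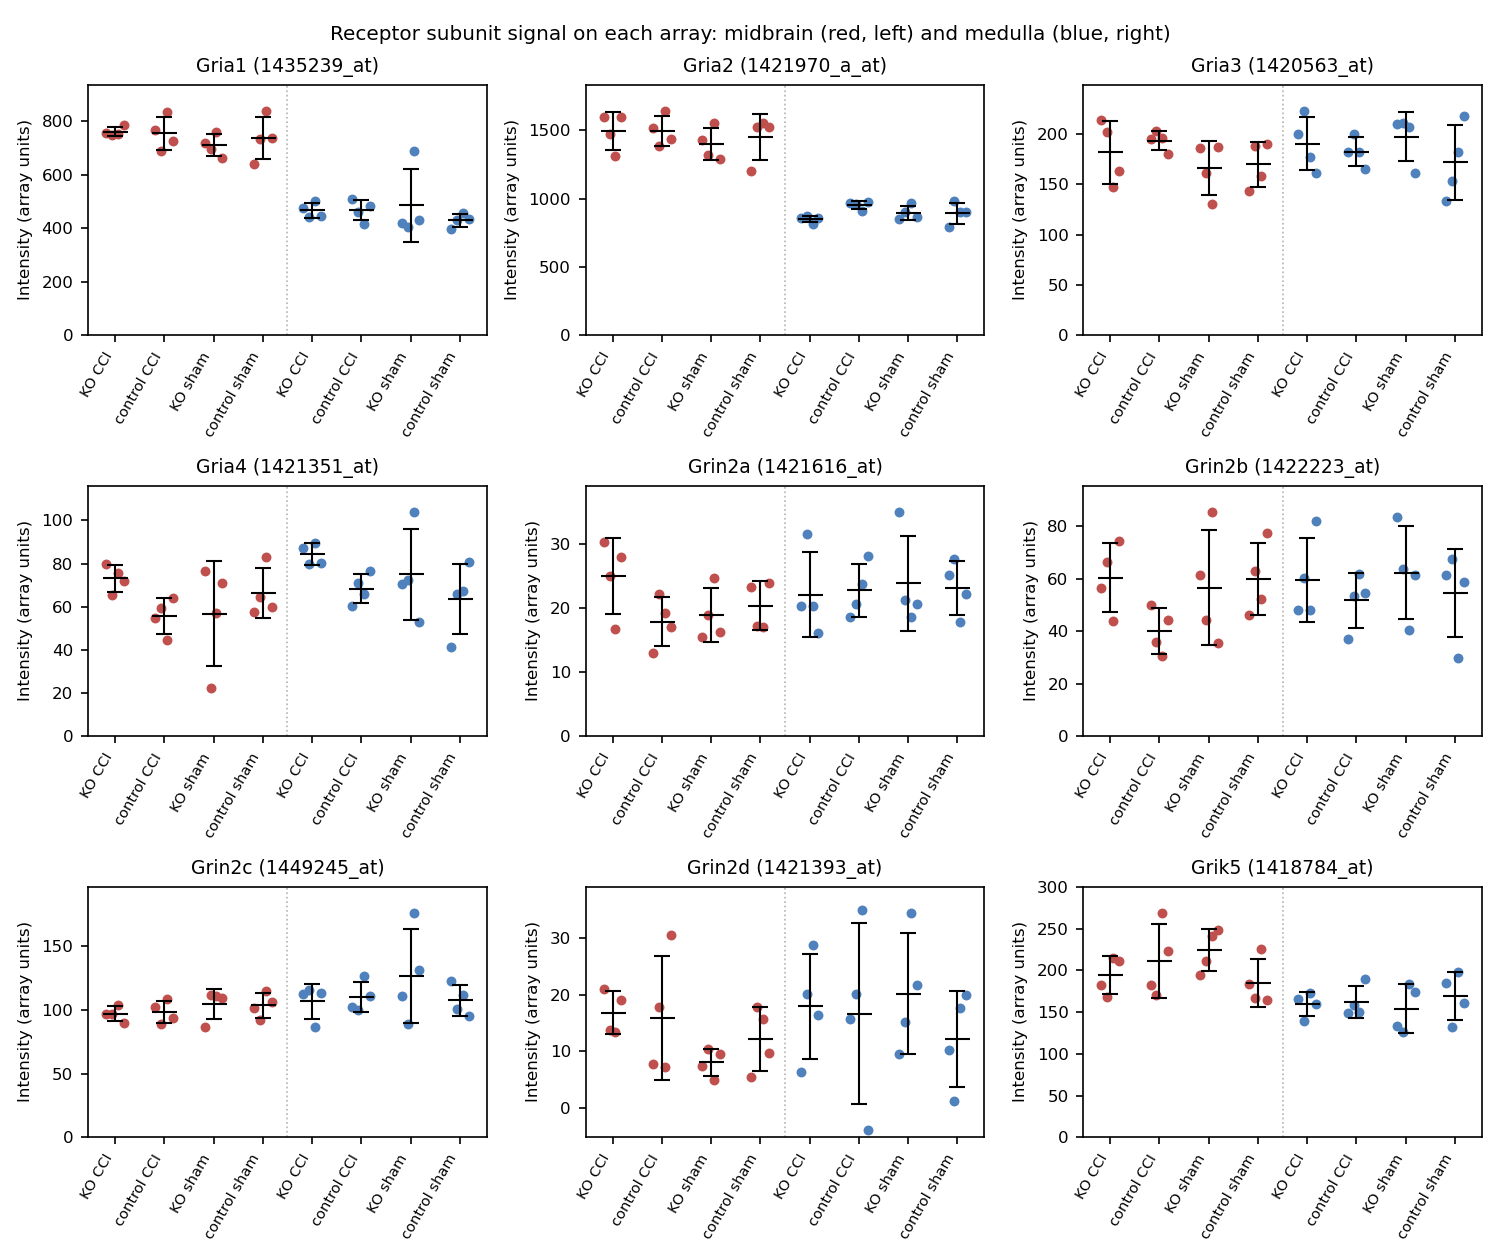
Intensity on each of the 32 arrays (y axis, array units) for the lead probe set of each of the 9 subunit genes, with midbrain groups in red at the left and medulla groups in blue at the right of each panel; bars are the mean and SD of 4 arrays. The Gria2 midbrain arrays all lie at 1200.4 units or more and its medulla arrays at 981 units or less, and KO sham medulla 3 is the single high medulla point of Gria1 at 689 units.

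Over the 8 groups both genes kept the midbrain above the medulla. Gria2 averaged 1495 ± 136 units in KO CCI, 1495 ± 111 in control CCI, 1400 ± 120 in KO sham and 1451 ± 168 in control sham midbrain (SD, n = 4 each). In medulla it averaged 850.5 ± 22.6 units in KO CCI, 953 ± 30.9 in control CCI, 896 ± 52.4 in KO sham and 894 ± 76.5 in control sham mice. Ordered by these means, neighbouring groups of a region overlapped, and KO CCI and control CCI, the lowest and highest medulla groups, did not. In that comparison groups did not overlap for 2% of all probe sets, and the Gria2 difference did not pass the threshold (limma, unadjusted p = 0.051). Gria1 averaged 711 to 762 units in the midbrain groups and 431 to 487 units in the medulla groups, with the largest SD, 136 units, in KO sham medulla.

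The other pair of AMPA subunits did not follow. Gria3 (1420563_at) ran from 130.0 through 187 to 214 units in midbrain and from 133 through 182 to 222 units in medulla. The regions covered nearly the same range, and the log2 difference was -0.05 (95% interval -0.181 to 0.089, adjusted p = 0.692). Gria4 (1421351_at), which encodes a subunit of fast receptors that is prominent in hindbrain and auditory neurons, ran from 22.5 through 64.2 to 83.1 units in midbrain and from 41.5 through 71.6 to 104 units in medulla. Its log2 difference was -0.18 (95% interval -0.377 to 0.014, adjusted p = 0.196). The highest medulla value, 104 units, was again KO sham medulla 3, without which the difference was -0.14 (adjusted p = 0.305), and the lowest midbrain value was KO sham midbrain 2.

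Because each animal gave both regions, the regional difference of one subunit could be set against that of another within the animal. This exact sign-flip test over 16 animals, with both tails and adjustment over 6 pairs of AMPA subunits, was chosen after the values had been seen. Animals are those of the array numbers. The regional log2 difference of Gria1 exceeded that of Gria3 by 0.71 ± 0.072 (SE) and that of Gria4 by 0.84 ± 0.099. That of Gria2 exceeded them by 0.75 ± 0.057 and 0.88 ± 0.088. Each of these 4 held in 16 of 16 animals, with p = 3.05e-05, the smallest value the exact test can give, and an adjusted p of 4.58e-05. Gria1 and Gria2 differed from each other by -0.04 ± 0.041 (exact p = 0.404), and Gria3 and Gria4 by 0.14 ± 0.081 (exact p = 0.115, adjusted 0.138, higher for Gria3 in 12 of 16 animals). Without the animal of KO sham medulla 3 the 4 differences lay between 0.751 and 0.882, in 15 of 15 animals. Paired by title, these 4 again held in 16 of 16 pairs.

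**Figure D2:**
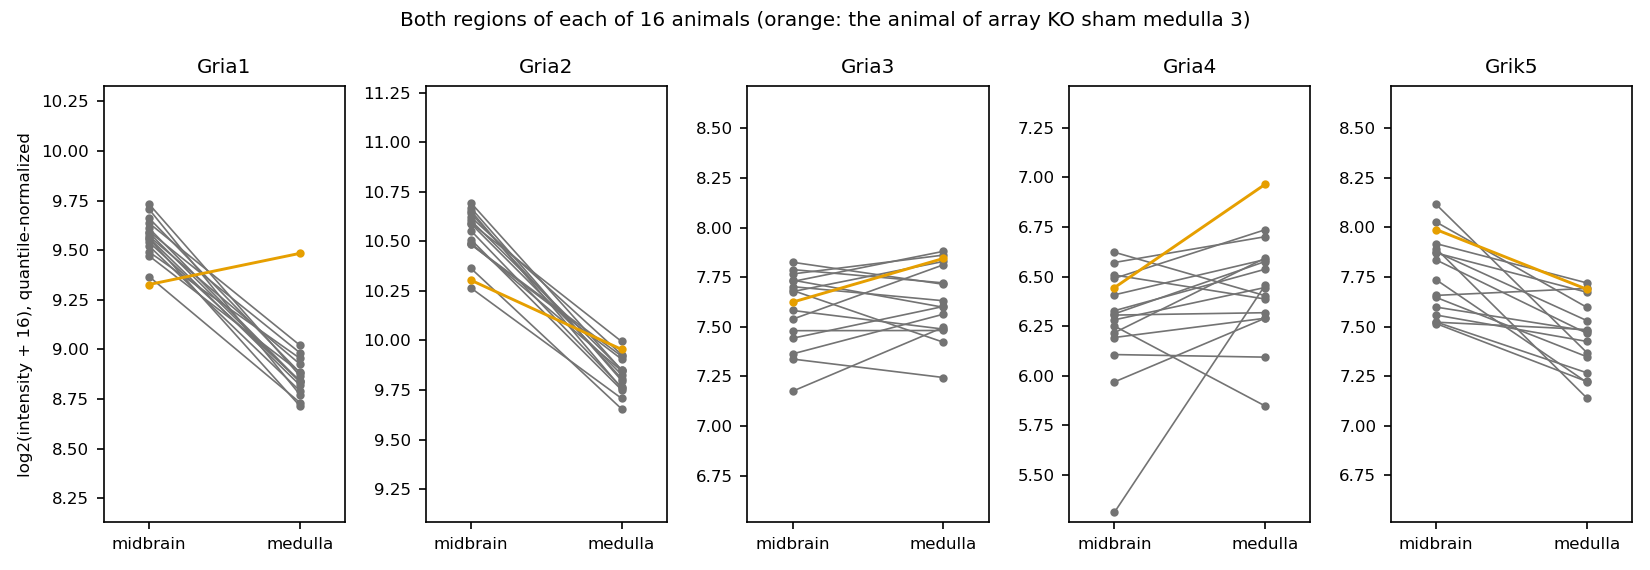
Quantile-normalized log2(intensity + 16) of the lead probe set in both regions of each of 16 animals, paired by array number, with a line for each animal and panels of equal height in log2 units; the orange line is the animal of KO sham medulla 3. Gria2 lines fall towards the medulla in 16 of 16 animals and Gria1 and Grik5 lines in 15 of 16 (Gria1 in 16 of 16 when paired by title), while Gria3 is higher in midbrain in 7 and Gria4 in 4 animals.

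By animal as paired by array number, the lead set of Gria1 was higher in midbrain in 15 of 16 and by a median of 1.64-fold, and the exception was the animal of KO sham medulla 3, at -0.16 on the log2 scale. Paired by title, Gria1 was higher in 16 of 16, with KO sham 3 at 0.13 and KO sham 4 at 0.49, so the exception rests on the pairing. Its other set was higher in 16 of 16 animals. Gria2 was higher in 16 of 16 animals on both sets (15 of 16 on the dimmer set when paired by title), by a median of 1.66-fold on the lead set, with animals between 1.27-fold and 1.86-fold. Fitted within the arrays of one array code, a number in the sample descriptions that may mark a production or hybridisation series, the regional log2 difference of Gria2 was 0.69 for the lower and 0.72 for the higher of the codes that occur in all 8 groups. Gria1 gave 0.69 and 0.64 in these fits. The remaining code held both arrays of control sham 1 only and gave no value of its own.

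Among the NMDA subunits no gene passed between the regions. Grin2a (1421616_at), a subunit of adult receptors that close fast, was dim on this array, from 13.1 through 19.1 to 30.2 units in midbrain and from 16.04 through 20.9 to 34.9 units in medulla. Its log2 difference was -0.09 (95% interval -0.223 to 0.044, adjusted p = 0.379). Grin2b, the subunit that predominates early in development, ran from 30.4 through 51.2 to 85.2 units in midbrain and from 29.9 through 59.5 to 83.6 units in medulla on its lead set (1422223_at). The regions overlapped throughout, with log2 differences of -0.07 (adjusted p = 0.701) on the lead set and 0.01 (adjusted p = 0.963) on the other (1431700_at), where medians were 15.0 units in midbrain and 16.9 units in medulla.

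Grin2c (1449245_at), known from cerebellar granule cells and astrocytes, ran from 86.4 through 102 to 115 units in midbrain and from 86.4 through 111 to 176 units in medulla. The 176 units are KO sham medulla 3, and the next highest medulla array of its group read 131 units. The log2 difference was -0.13 (95% interval -0.266 to 0.007, adjusted p = 0.184), and -0.09 without that array (adjusted p = 0.29). Leaving out KO sham medulla 2 instead, which read 88.6 units, gave -0.165 and an adjusted p of 0.048. No other omission of a single array brought Grin2c past the threshold. Grin2d (1421393_at), a subunit of slow receptors found in brainstem and interneurons, was the dimmest, with medians of 11.9 units in midbrain and 17.0 units in medulla and 1 medulla array below 0. Its log2 difference was -0.13 with a 95% interval of -0.431 to 0.171 (adjusted p = 0.604). The median medulla signals of Grin2a and Grin2d stood at the 17.1st and 14.3rd percentile of all probe sets of those arrays, and such dim sets leave wide intervals. Of 16 arrays per region, 12 midbrain and 11 medulla arrays of Grin2a, and 15 midbrain and 13 medulla arrays of Grin2d, read no higher than the highest Cckbr value of a KO array, 24.1 units. The dimmer Grin2b set did so on 15 midbrain and 13 medulla arrays, so differences of these 3 sets say little about their genes.

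Grik5 (1418784_at) encodes a high-affinity kainate subunit that needs another kainate subunit to form a channel. Its values were 182, 169, 215 and 211 units in KO CCI midbrain and 166, 139, 173 and 160.0 units in KO CCI medulla. KO sham mice had 195, 212, 242 and 248 units in midbrain and 133, 126, 184 and 174 units in medulla. In control CCI mice they were 182, 170.4, 268 and 224 units in midbrain and 149, 159, 151 and 190.0 units in medulla. Control sham mice had 184, 166, 225 and 164 units in midbrain and 186, 133, 198 and 161 units in medulla. Only the KO sham groups did not overlap between the regions, and the share of all probe sets that do so was not computed. Over all arrays Grik5 was higher in midbrain by 0.31 ± 0.068 on the log2 scale (SE, 95% interval 0.17 to 0.451, adjusted p = 0.00117), 1.24-fold, and it was higher in 15 of 16 animals. It gave 0.34 (adjusted p = 0.0125) within the lower array code and 0.33 (adjusted p = 0.0238) within the higher.

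**Figure D3:**
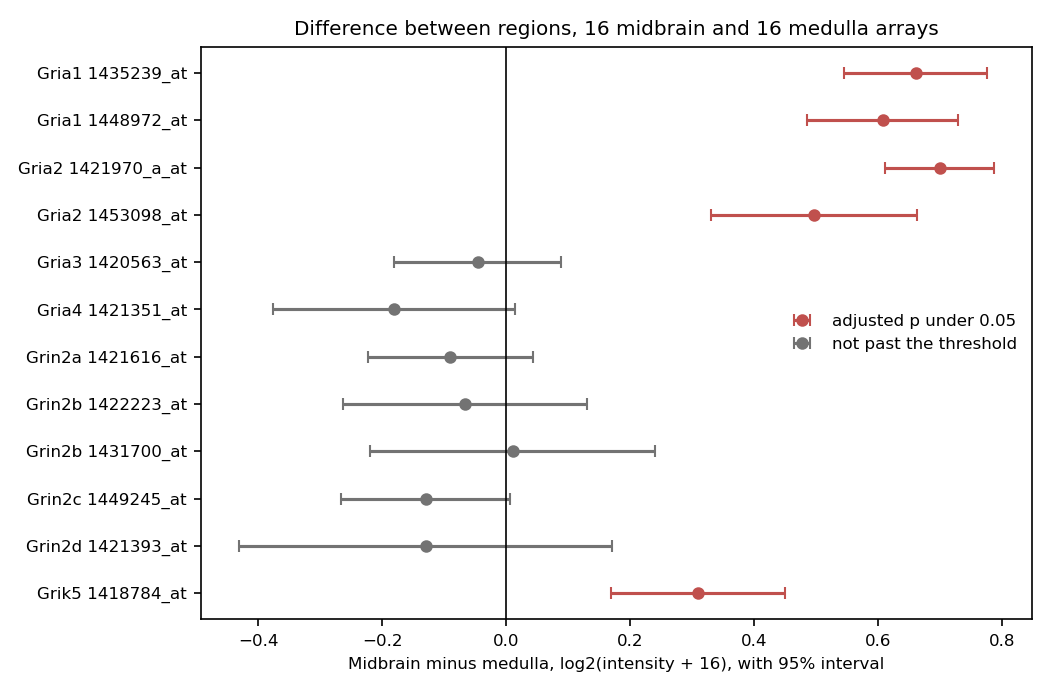
Midbrain minus medulla difference (x axis, log2(intensity + 16), all 32 arrays) for each of the 12 probe sets, with points for the estimate and bars for the 95% interval; red marks an adjusted p under 0.05. The 5 red sets, of Gria1, Gria2 and Grik5, lie between 0.31 and 0.70, and every other interval includes 0.

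Split by genotype, KO mice had 5 of the 12 sets called higher in midbrain and 0 lower, beside 13.7% of all probe sets called in either direction, and control mice had 4 higher and 0 lower beside 9.86%. The lead set of Gria2 was higher in midbrain by 0.73 in KO mice and 0.67 in control mice, and that of Gria1 by 0.62 (0.71 without KO sham medulla 3) in KO mice and 0.70 in control mice. The difference between the calls lay with Grik5, at 0.39 in KO mice (adjusted p = 0.00664) and 0.23 in control mice (adjusted p = 0.145). With the array code as a term Grik5 passed in control mice too (adjusted p = 0.0182). Its genotype by region interaction was 0.15 ± 0.137 (SE, unadjusted p = 0.273), so a difference between the genotypes was not shown. By limma 0 of the 12 sets, and 0% of all, had an adjusted p under 0.05 for that interaction, and at an unadjusted p under 0.05 the counts were 0 of 12 and 859 of 22626.

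Other cell markers moved with region beside the subunits. In bulk tissue a lower level from fewer cells of a type and from less RNA per cell cannot be told apart. Of 19 pan-neuronal markers 3 were higher and 7 lower in midbrain (median log2 difference -0.05, with 0.01 for all genes), and their summed level ran from 33870 to 40330 units in midbrain and from 39360 to 46290 units in medulla. Oligodendrocyte and myelin genes were higher for 0 and lower for 9 of 11 in midbrain (median -0.21), and astrocyte genes higher for 2 and lower for 6 of 12 (median -0.08). Microglial genes passed in neither direction (0 of 11). Thalamus markers were higher for 3 of 5, with sums of 1178 to 2599 units in midbrain and 577 to 868 units in medulla. Choroid plexus genes were higher for 1 and lower for 6 of 7, with sums of 366 to 5385 units in midbrain and 1028 to 10770 units in medulla. Cerebellar markers were higher for 1 and lower for 4 of 11. The part of these cell types in the regional difference of Gria1, Gria2 and Grik5 was not tested.

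The genes that work with the receptors were counted on 5 lists over the lead sets of the same regional comparison, in which 24.3% of the lead sets of all genes were called. Of 11 measured auxiliary subunits of AMPA and kainate receptors 5 were higher and 1 lower in midbrain (median 0.14). Cnih3, a cornichon protein that slows AMPA receptor closing, was the largest at 1.101 ± 0.099 (SE, 2.15-fold, adjusted p = 1.35e-09), with 59.7 to 105 units on midbrain arrays and 8.68 to 42.5 units on medulla arrays. Cnih2, its close relative, was higher by 0.89 ± 0.048 (SE, adjusted p = 2.3e-14), with 491 to 712 units in midbrain and 276 to 382 units in medulla. Neither cornichon gene overlapped between the regions, for which no share over all probe sets was computed. Cacng3, a transmembrane AMPA receptor regulatory protein, was higher by 0.60, and Cacng2 (stargazin), of the same family, was lower (-0.30, adjusted p = 0.00381), with 163 to 294 units in midbrain and 202 to 365 units in medulla.

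Of 5 measured genes among the other kainate, delta and NMDA subunits 2 were higher, Grik2 by 0.42 and Grik1 by 0.26, both encoding kainate subunits with which the Grik5 product can assemble. Grin3b, of a glycine-binding NMDA subunit, was lower (-0.25, adjusted p = 0.0452). Its means, 21.58 units in midbrain and 28.55 units in medulla, lie near the highest Cckbr value of a KO array, 24.1 units. The Grin3b difference thus says little about the gene. Only 1 of 7 listed metabotropic receptors was measured, Grm8, which was higher by 0.20. Of 18 anchoring and trafficking genes 5 were higher and 1 lower (median 0.08), a share near that of 24.3% over all genes. They included Nptx2, a secreted pentraxin that clusters AMPA receptors (0.55), and the scaffold genes Shank3 (0.41) and Dlg3 (0.39), and Homer3 was the lower one (-0.27). Of 9 genes of glutamate transport and the glutamine cycle 3 were higher, Slc1a3 (0.39), Slc17a6 (0.34) and Slc1a1 (0.11), and 3 lower, Slc1a2 (-0.40), Slc38a3 (-0.31) and Slc38a2 (-0.16). Slc1a2 and Slc1a3 are also on the astrocyte list.

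None of the 12 probe sets passed the threshold for genotype. In midbrain, averaged over operation, 0 of 12 were called by limma for KO against control, beside 7 of all probe sets (0.0309%), and at an unadjusted p under 0.05 the counts were 0 of 12 and 1694 of 22626. In medulla 0 of 12 were called beside 12 of all sets (0.053%), with 0 and 760 at an unadjusted p under 0.05. The lead set of Gria2 gave -0.02 (95% interval -0.172 to 0.135) in midbrain and -0.08 (-0.194 to 0.03) in medulla. That of Gria1 gave -0.02 (-0.149 to 0.118) in midbrain and 0.07 (-0.133 to 0.265) in medulla, where it was -0.02 without KO sham medulla 3. The widest member intervals were those of Grin2d, from -0.391 to 0.229 in midbrain and from -0.274 to 0.758 in medulla. Gria4 was 0.22 higher in KO medulla (95% interval -0.031 to 0.475), and 0.14 without KO sham medulla 3. These intervals do not show equal levels.

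Within sham mice, KO against control called 0 of 12 sets in midbrain (0.0133% of all) and 0 of 12 in medulla (0.0133%), with 0 of 12 at an unadjusted p under 0.05 in both. The lowest adjusted p of a member over the genotype and injury comparisons was 0.605, for Grik5 in sham midbrain. There KO sham mice had 195, 212, 242 and 248 units and control sham mice 184, 166, 225 and 164 units. The KO values were mostly the higher ones but the groups overlapped, with a log2 difference of 0.26 ± 0.131 (SE, unadjusted p = 0.0686). In sham medulla the lead set of Gria1 was 0.14 higher in KO mice, and -0.04 without KO sham medulla 3. Grin2c was 0.18 higher there, and 0.01 without that array, and Gria4 was 0.185 higher, and 0.022 without it.

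In CCI mice, KO against control again called 0 of 12 sets in midbrain (0.00884% of all) and 0 of 12 in medulla (0.00442%), with 0 of 12 at an unadjusted p under 0.05 in both regions. The Gria2 lead set in medulla read 856, 870.3, 818 and 858 units in KO CCI mice and 972, 959, 907 and 972 units in control CCI mice. The KO values were all below the control values, with a log2 difference of -0.16 ± 0.075 (SE, unadjusted p = 0.051, adjusted p = 1). The other Gria2 set gave -0.09 (unadjusted p = 0.558), with overlapping groups. Gria4 read 87.5, 79.9, 89.8 and 80.5 units in KO CCI medulla and 60.4, 70.9, 65.9 and 76.5 units in control CCI medulla. In midbrain it read 79.8, 65.3, 75.7 and 71.7 units in KO CCI mice and 54.7, 59.3, 44.8 and 64 units in control CCI mice. The KO values of Gria4 were the higher ones in both regions without overlap, by 0.26 ± 0.168 (SE, unadjusted p = 0.143) in medulla and 0.25 ± 0.202 (unadjusted p = 0.231) in midbrain, neither past the threshold. Groups did not overlap for 2.0% of all probe sets in that comparison in medulla and 5.44% in midbrain. Both regions came from the same animals, so they are not independent.

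**Figure D4:**
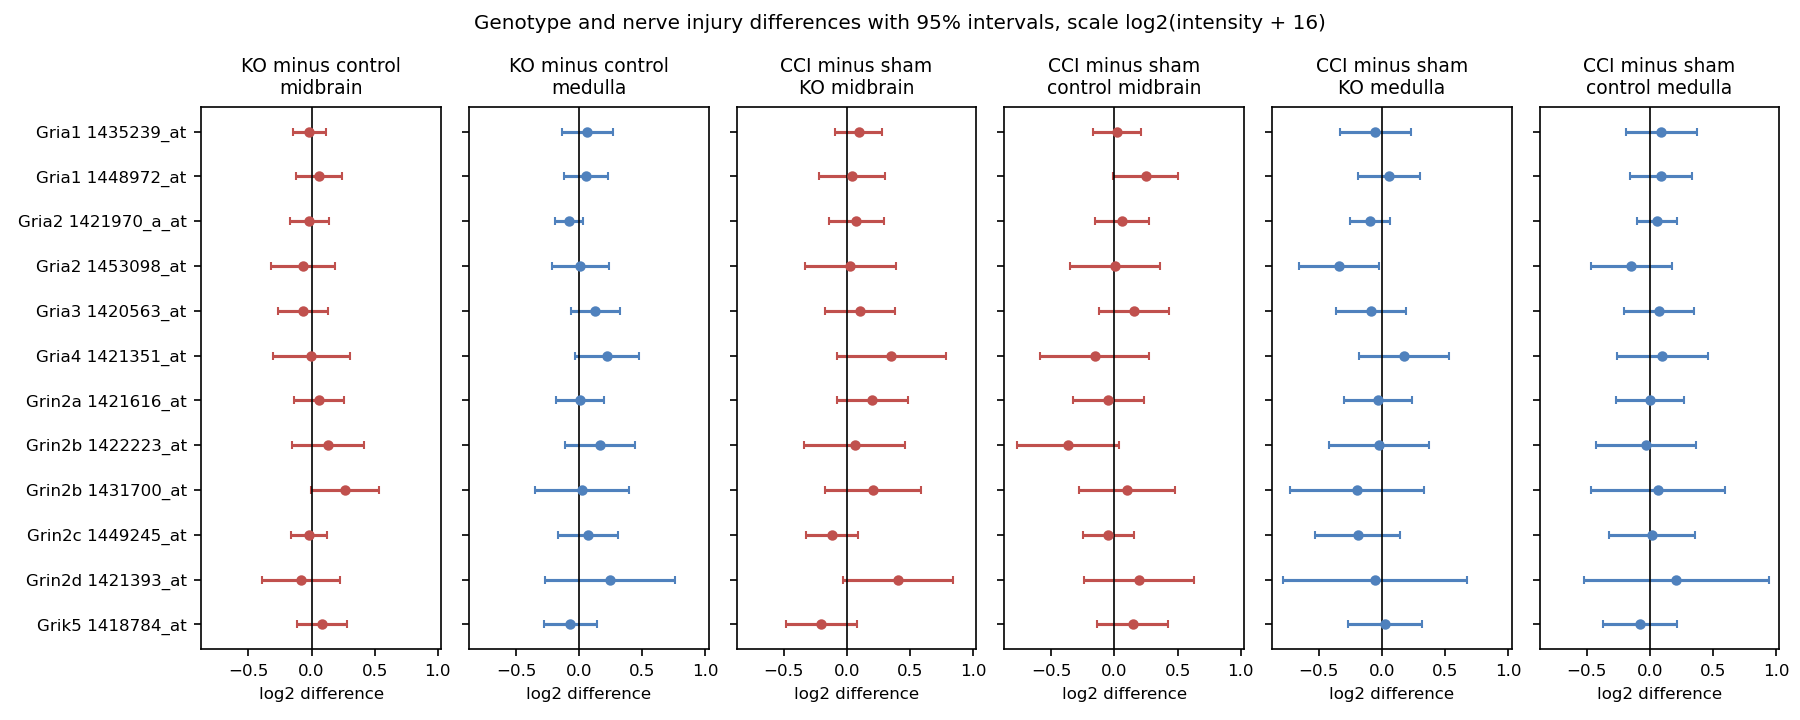
Genotype and injury differences (x axis, log2(intensity + 16)) of the 12 probe sets with 95% intervals, in 6 panels, with midbrain in red and medulla in blue. All intervals include 0 except that of Gria2 1453098_at for CCI against sham in KO medulla, which runs from -0.659 to -0.023 and has an adjusted p of 0.993.

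Injury likewise called 0 of 12 sets, and 0% of all probe sets, by limma in KO midbrain, KO medulla, control midbrain and control medulla. At an unadjusted p under 0.05 the members counted 0 of 12 in KO midbrain, 1 of 12 in KO medulla, 0 of 12 in control midbrain and 0 of 12 in control medulla, and all probe sets counted 1863, 959, 679 and 633. The one member was the dimmer Gria2 set (1453098_at) in KO medulla, with 239.7, 217, 248 and 253 units in KO CCI mice and 258, 239, 338 and 380.0 units in KO sham mice. The injured mice were lower on average but the groups overlapped, with a log2 difference of -0.34 ± 0.149 (SE, unadjusted p = 0.0374, adjusted p = 0.993). The lead Gria2 set gave -0.10 (unadjusted p = 0.215), so the lead set did not reach the unadjusted threshold. Gria1 gave -0.05 on its lead set in the same comparison and 0.12 without KO sham medulla 3, and Gria4 gave 0.17 and 0.34 without it.

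In KO midbrain Grin2d read 21.1, 13.8, 13.4 and 19.1 units in KO CCI mice and 7.45, 10.3, 4.93 and 9.57 units in KO sham mice. The injured mice were higher without overlap, and groups did not overlap in this comparison for 2.78% of all probe sets. All 8 readings lie below 24.1 units, the highest reading of the deleted Cckbr on a KO array. Neither group is thus shown to be above background, and no fold is given. Over the 8 comparisons of 2 groups, 4 of 96 member comparisons did not overlap, and 2.8% of those of all probe sets. In control midbrain Grin2b read 50.1, 36, 30.4 and 44.1 units on its lead set in CCI mice and 46, 63, 52.4 and 77.4 units in sham mice, overlapping, with a log2 difference of -0.37 ± 0.188 (SE, unadjusted p = 0.0696, adjusted p = 1). Its other set gave 0.10, in the opposite direction.

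The genotype by CCI interaction was called for 0 of 12 sets and 0% of all in midbrain and in medulla by limma. At an unadjusted p under 0.05 it counted 0 of 12 members in both, with 1241 of all sets in midbrain and 604 in medulla. The largest member estimate, for Gria4 in midbrain, was 0.51 ± 0.286 (SE, unadjusted p = 0.0953). The median SE of an interaction was 0.194 on the log2 scale over all sets. None of the genes of the 5 receptor lists and none of the cell type markers passed in any genotype, injury or interaction comparison.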

How the data were processed

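Total RNA was extracted with Trizol and 4 ug was made into biotinylated cRNA for Affymetrix arrays, per the labels' protocols. The deposited values are intensities on a linear scale, 1 per probe set and array, background-subtracted and scaled by the authors with a method not given in the sources used here. Probe sets were named from GEO's platform annotation (20380 with 1 symbol, 691 with several, 1555 with none), and 64 control sets were left out. Values under 0 were set to 0, 16 was added, log2 was taken and the 32 arrays were quantile-normalized. Fold changes are therefore on the log2(intensity + 16) scale, which understates those of dim sets.

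Regions were compared in 1 fit of 8 group means to 32 arrays, and genotype and injury within the 16 arrays of a region, with limma 3.58.1 in R 4.3.3 (lmFit, eBayes, both tails, Benjamini-Hochberg over 22626 sets, threshold 0.05). The fit was tested on simulated data. Printed intensities are the deposited ones. The genes to name followed a rule: every member on every set, and up to 3 genes in each direction of a partner list, and up to 3 genes most like a member. The members, lists and tests were chosen with earlier results of these data known.

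No arrays were identical (0 pairs), and arrays of a group correlated at 0.962 to 0.989. Arrays of one animal, by consecutive array numbers (the titles differ for KO sham 3 and 4), had residuals correlated at 0.171 on average, over 0.1 in 10 of 16 animals. Arrays of one region with the same title number in different animal groups gave 0.054 on average, over 0.1 in 16 of 48 pairs. With different title numbers the average was -0.018, over 0.1 in 19 of 144 pairs. Arrays of the same title number were thus slightly more alike, and the reason was not tested. Alternatives were the normalization, pseudocount, dim filter, variance model, array weights, array code, blocks, 1 set per gene and omission of each array.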

Additional observations from a re-analysis of the deposited data

Results flagged for a closer look

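Within a group of 4 arrays, the gap of the highest or lowest array to its nearest neighbour was divided by the group's range. Both were taken on the quantile-normalized log2 scale. The ratio passed Dixon's 95% critical value in 8 of 96 groups, where chance alone gives about 5%. The units printed here are deposited intensities, on which some of these flags fall short of that value. On the Gria1 sets KO sham medulla 3 was high, at 689.5 units on 1435239_at (the other 3 arrays at 403 to 431 units) and at 490.1 units on 1448972_at (445 to 461 units). This is the array with high cerebellar markers, Gabra6 among them at 1077 units, and the part of cerebellar tissue in its Gria1 value was not tested. Control CCI midbrain 3 was high on Gria1 1448972_at at 895 units (719.5 to 761 units). Control sham midbrain 1 was low on the Gria2 lead set at 1200.4 units (1523 to 1558 units). It is still above every medulla array.

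KO sham medulla 4 was low for Gria3 at 161 units (207 to 211 units). Grin2a was high on control CCI medulla 4 at 28.1 units (18.6 to 23.8 units) and on KO sham medulla 1 at 34.9 units (18.6 to 21.2 units). Grin2c was low on KO CCI medulla 3 at 86.4 units (112 to 115 units).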

How the results depend on the processing

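The 14 calls of members, all between the regions, were refitted 666 times under the alternatives and with each array left out. Of these refits 661 kept the call and 0 reversed its direction. The calls are of 5 probe sets, over all mice and within a genotype, so they are not independent. For calls within a genotype the omissions include arrays of the other genotype, which those calls do not compare. The 5 lost calls came from fits within one of the array codes that occur in all groups, which hold fewer arrays. In control mice Gria2 1453098_at gave 0.44 (adjusted p = 0.121) within the lower code and 0.54 (0.123) within the higher. Within the higher code in KO mice the Gria1 lead set gave 0.50 (adjusted p = 0.0674), Gria2 1453098_at 0.48 (0.128) and Grik5 0.36 (0.106), which left 2 of 12 sets called in place of 5. With 1 set per gene the counts were 3 for all mice, 2 for control mice and 3 for KO mice, by construction. Leaving out each array gave 5 to 6 calls over all mice, 4 to 4 in control mice, 5 to 5 in KO mice and 0 in every other comparison. Calls gained were Grik5 in control mice, at 0.23 with the array code as a term (adjusted p = 0.0182), and Grin2c over all mice without KO sham medulla 2 (-0.165, adjusted p = 0.048). With the title number as a replicate block, Grik5 in control mice also passed (0.23, adjusted p = 0.0294), no other call changed, and Gria2 gave 0.70 (adjusted p = 8.85e-12). With the animal as a random block no call changed. The omission of both arrays of control sham 4 and KO CCI 1, low in the choroid plexus gene Ttr, was added after seeing the data and changed no call.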

Other observations

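Beyond the group differences, the lead sets of the members varied together in part from array to array. Residuals from the 8 group means over 32 arrays, which share preparation and scaling, correlated at 0.57 for Gria1 with Gria2, 0.558 for Grin2c with Grik5, 0.515 for Gria1 with Grin2c and -0.48 for Gria3 with Grik5 (Pearson, as a description). Without KO sham medulla 3 these were 0.604, 0.498, 0.222 and -0.53, so that of Gria1 with Grin2c rests largely on that array. Among 6821 other genes with a mean level over 100 units, the residuals most like those of Gria1 were of Dock1 (0.816), Tacc2 (0.813) and Ets2 (0.811), which fell to 0.686, 0.677 and 0.762 without KO sham medulla 3. For Gria2 they were of Ptpra (0.682), Hipk1 (0.655) and Ccdc88a (0.653). For Gria3 the first was Pdcd6ip (0.815), for Gria4 it was Kcna2 (0.881), which encodes a potassium channel of axons, and for Grik5 they were Abhd8 (0.892), Mast3 (0.888) and Adgrg1 (0.873). Among the NMDA genes the first in order were Gopc for Grin2a (0.649), Oxt for Grin2b (0.762), Srrt for Grin2c (0.785, and 0.674 without KO sham medulla 3) and Rnf19b for Grin2d (0.587).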
